A study of Mus musculus with 6 samples.

Results

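This account follows 9 genes that mark B cells and antibody-secreting plasma cells in mouse lung 90 days after silica. They are the rows of the mRNA count table with the symbols Jchain, Mzb1, Xbp1, Pou2af1, Derl3, Irf4, Cd79a, Cd79b and Ms4a1, 9 of 17973 listed mRNAs, and all 9 were among the 15808 mRNAs that passed the filter on low counts. The first 6 are described as plasma cell genes and the last 3 as B cell genes. Lungs of C57BL/6 mice gave 6 libraries of total RNA, 3 from control animals and 3 from animals with silicosis, a scarring lung disease caused by crystalline silica. The silicosis animals had received 8 mg of silica in 40 µL of saline, once, into the trachea. The control libraries C7, C8 and C9 are labelled only as control, and the series text names sterile normal saline. Age and sex are not given in the labels used here, and the labels do not say that each library came from a separate mouse, so each p-value reflects only how far these libraries vary, which may be technical.

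B cells carry a membrane antibody as their antigen receptor, and 2 small proteins, Cd79a and Cd79b, pass its signal into the cell. A B cell that turns into a plasma cell stops displaying that receptor and becomes a factory for secreted antibody, with a much enlarged endoplasmic reticulum (ER). Irf4 and Xbp1 drive that change, and the joining chain Jchain links secreted antibodies into the polymers that epithelium carries to mucosal surfaces. In inflamed lung, B cells gather in lymphoid follicles near airways and vessels, and plasma cells can persist there. In RNA from lung tissue, more cells of a type and more RNA per cell cannot be told apart. Of 8 immunoglobulin constant region genes looked for by symbol, 0 were in the mRNA count table, so they could not be analysed here.

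The libraries held between 33698920 and 44000748 mRNA counts. Levels are in CPM, counts scaled to the size of the library with TMM factors, and means carry the SD over the 3 libraries of a group. Each fold change sets silicosis over control. A gene is called higher or lower where the edgeR quasi-likelihood test gave an adjusted p under 0.05 over all 15808 tested mRNAs. Lung identity was present in each library, with Sftpc, the surfactant protein of alveolar type 2 cells, between 7553 and 11749 CPM. Ager, of alveolar type 1 cells, Cdh5, of endothelium, and Scgb1a1, of club cells, were called lower in silicosis. The silicosis library N138 stood apart for these genes: it was the lowest of the 3 silicosis libraries for 9 of 9 members, against 37.1% of all tested mRNAs.

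All 6 plasma cell genes rose in silicosis, by 0.56 to 4.02 on the log2 scale, and 0 of the 3 B cell genes were called in either direction. Over all tested mRNAs 15.3% were called higher, 16.5% lower and 31.8% in either direction. The 3 silicosis libraries lay above the 3 controls for 3 of the 6 plasma cell genes, Jchain, Xbp1 and Derl3. Over all tested mRNAs 23.7% lay above in this way and 24.0% below, so that separation alone is common in these libraries. The median log2 fold change was 1.21 for the plasma cell genes and 0.26 for the B cell genes, beside 0.02 for all tested mRNAs. With N138 left out, Ms4a1 joined the called genes (log2 fold change 0.96, edgeR adjusted p = 0.00534). With C8, N129 or N136 left out, the plasma cell genes called were Jchain, Xbp1 and Derl3, 3 of 6, and with C7 left out they were Jchain, Mzb1 and Derl3.

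**Figure D1:**
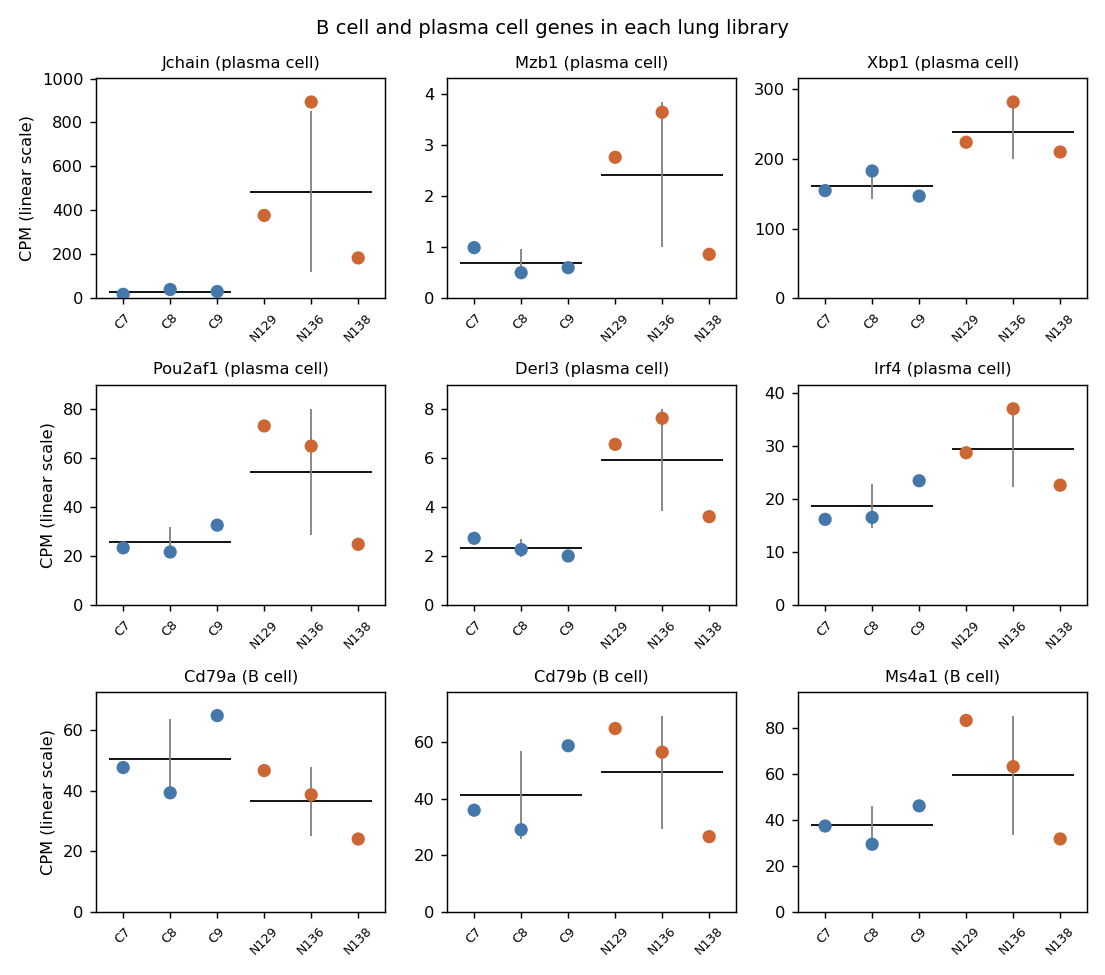
CPM of each of the 9 genes (vertical axes, linear and starting at 0) in the 6 libraries (horizontal axes), with controls in blue and silicosis in orange; horizontal lines are group means and grey bars the SD. Jchain separates the groups by far the most, and N138 is the lowest silicosis library in each panel.

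Jchain had the steepest rise of the 9. Its level was 18.2, 40.2 and 31.0 CPM in C7, C8 and C9, and 377, 893 and 184 CPM in N129, N136 and N138. The lowest silicosis library was thus well above the highest control, but the silicosis libraries themselves spanned 4.86-fold. The means were 29.8 ± 11.1 and 485 ± 367 CPM (SD, n = 3 each), a log2 fold change of 4.02 with an SE of 0.55 (edgeR adjusted p = 0.0009). Without N136 the log2 fold change was 3.23, and the call held without any 1 of the 6 libraries. In the authors' deposited table Jchain had a log2 fold change of 4.02 and an adjusted p of 1.79e-07.

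Mzb1 encodes an ER chaperone that helps antibodies assemble in marginal zone B cells and plasma cells. It was scarce, with 0.994, 0.503 and 0.600 CPM in the controls and 2.76, 3.65 and 0.862 CPM in N129, N136 and N138. N129 and N136 were above the controls, while N138 lay inside their range. The log2 fold change was 1.80 (SE 0.53, edgeR adjusted p = 0.0295). The call ended without C8, C9, N129 or N136, with edgeR adjusted p between 0.0792 and 0.105, and with limma-voom (adjusted p = 0.0707). Mzb1 counts are uncertain, because 77.0% of its transcript sequence in the GENCODE M21 annotation also belongs to a gene named SPATA24 on the same strand.

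Derl3 makes a membrane protein of the ER that helps remove misfolded proteins, and it is plentiful in secretory cells. Control libraries held 2.73, 2.27 and 2.01 CPM. Silicosis libraries held 6.57, 7.64 and 3.62 CPM, each above each control. Its log2 fold change of 1.35 (SE 0.30, edgeR adjusted p = 0.0088) stayed called without any 1 of the 6 libraries.

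Xbp1 encodes the transcription factor that expands the secretory apparatus once its messenger has been spliced by the ER stress sensor Ern1. These counts do not separate the spliced from the unspliced form. The gene was abundant in controls, at 154, 182 and 147 CPM, and reached 224, 281 and 210 CPM in N129, N136 and N138. The groups did not overlap, and the log2 fold change was 0.56 (SE 0.13, edgeR adjusted p = 0.0117). Without C7 the edgeR adjusted p was 0.0502. Xbp1 is expressed in many secretory cells. Of 9 secretory epithelial markers, Agr2 and Muc5ac were called higher, with log2 fold changes of 2.52 and 1.94, and Scgb1a1 and Creb3l1 lower, with -1.18 and -0.53.

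Irf4 encodes a transcription factor needed for plasma cell formation and also used by activated lymphocytes, dendritic cells and macrophages. Levels were 16.2, 16.6 and 23.5 CPM in the controls and 28.8, 37.1 and 22.6 CPM in N129, N136 and N138. N138 lay below C9, so the groups overlapped. The log2 fold change was 0.65 (SE 0.20, edgeR adjusted p = 0.0375), and without C7, C8, N129 or N136 the call ended, with edgeR adjusted p from 0.0791 to 0.124.

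Pou2af1 encodes OCA-B, a coactivator that B and plasma cells use at octamer sites of immunoglobulin promoters. It was at 23.4, 21.7 and 32.7 CPM in the controls. N129 and N136 held 73.3 and 65.0 CPM, whereas N138 held 24.9 CPM, inside the control range. The log2 fold change was 1.07 (SE 0.34, edgeR adjusted p = 0.0416). This was the least secure of the 6 calls: it ended with DESeq2 (adjusted p = 0.0801), with limma-voom (adjusted p = 0.081) and without any of C7, C8, C9, N129 or N136 (edgeR adjusted p from 0.0555 to 0.142). The authors' deposited table likewise gives Pou2af1 an adjusted p of 0.0817.

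The promoters of 6 members were in the RefSeq promoter table of GRCm38.p6, an earlier build than the GRCm39 named in the submitters' processing notes. They were searched on both strands, in the 250 bases before the RefSeq start, for 4 motifs tied to regulators discussed above. The octamer ATGCAAAT, bound with the help of Pou2af1, and GGAANNGAAA, bound by Irf4 with an Ets partner, had no match in these windows of the 6 genes, and occur in 1.6% and 2.3% of 32851 promoters of the same length. The Xbp1-binding letters TGACGTGG occur in 0.563% of them and matched Pou2af1, 61 to 54 bases before its start. The ER stress element, CCAAT and CCACG with 9 bases of any kind between them, occurs in 0.113% and matched Derl3 on the opposite strand, beginning 156 bases before its start. These motifs are not independent: CCACG read on the other strand is the end of TGACGTGG. A match describes the sequence only.

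The 200 bases before the start are shown for Derl3 and Pou2af1, which hold the matches, and for Jchain, the gene with the largest rise, which holds none. Each is written 5′ to 3′ on the strand of its gene, with the matched motif in capitals. Derl3 lies at chr10:75893198-75893397 on the plus strand, Pou2af1 at chr9:51213490-51213689 on the plus strand and Jchain at chr5:88527898-88528097 on the minus strand (GRCm38.p6).
Derl3: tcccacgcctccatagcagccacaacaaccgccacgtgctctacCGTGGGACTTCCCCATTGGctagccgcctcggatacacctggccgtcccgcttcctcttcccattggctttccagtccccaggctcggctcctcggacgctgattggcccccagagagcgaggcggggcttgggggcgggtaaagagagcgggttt
Pou2af1: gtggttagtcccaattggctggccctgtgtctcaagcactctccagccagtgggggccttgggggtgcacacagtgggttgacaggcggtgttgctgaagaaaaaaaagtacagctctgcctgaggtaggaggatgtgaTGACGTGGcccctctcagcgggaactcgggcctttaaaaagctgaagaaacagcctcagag
Jchain: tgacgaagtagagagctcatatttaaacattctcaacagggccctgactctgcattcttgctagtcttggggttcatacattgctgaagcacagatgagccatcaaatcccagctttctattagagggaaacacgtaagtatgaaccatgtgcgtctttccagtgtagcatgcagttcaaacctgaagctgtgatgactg

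Among the B cell genes, Cd79a and Cd79b encode the signalling pair of the antigen receptor. Cd79a was at 47.6, 39.3 and 64.8 CPM in the controls and at 46.6, 38.6 and 24.1 CPM in N129, N136 and N138, respectively. N129 lay within the control range, N136 just under it and N138 well under it. Its log2 fold change was -0.47 (SE 0.25, edgeR adjusted p = 0.175). Cd79b was at 35.9, 29.1 and 58.7 CPM in the controls and at 64.8, 56.4 and 26.6 CPM in silicosis, in the same library order. Its groups overlapped on both sides, with a log2 fold change of 0.26 (SE 0.33, edgeR adjusted p = 0.59).

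Ms4a1 encodes CD20, a surface protein of B cells that plasma cells lose. Controls held 37.5, 29.5 and 46.2 CPM, and N129, N136 and N138 held 83.5, 63.4 and 31.8 CPM. N129 and N136 were above the controls and N138 was within their range. The log2 fold change was 0.66 (SE 0.30, edgeR adjusted p = 0.129), about the size of that of Irf4, but with a wider spread.

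**Figure D2:**
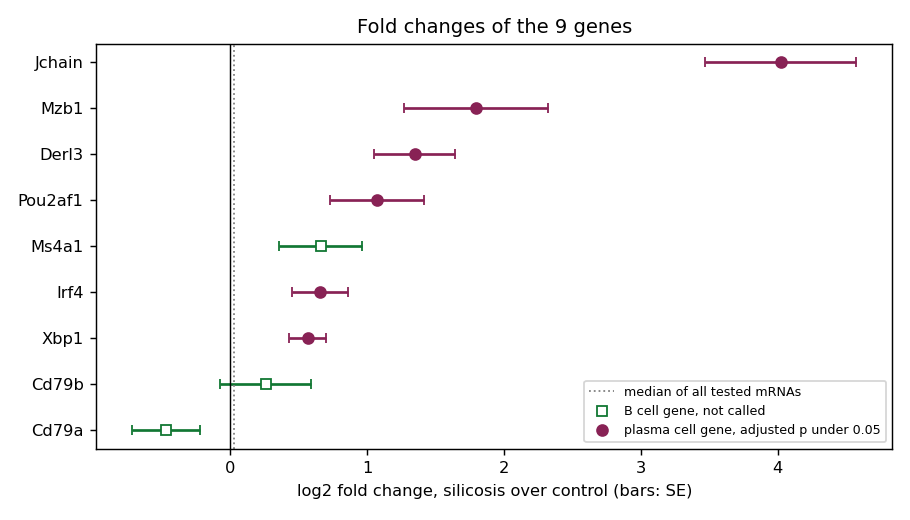
Log2 fold change, silicosis over control (horizontal axis), of the 9 genes (vertical axis, sorted); bars are the SE, filled circles passed an adjusted p of 0.05 and open squares did not. Jchain stands at 4.02, the other 5 plasma cell genes between 0.56 and 1.80, and the B cell genes between -0.47 and 0.66.

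The 3 B cell genes stood in other proportions in silicosis than in the controls, a pattern chosen for description after its values were seen and given without a test. Ms4a1 counts per Cd79a count were 0.786, 0.751 and 0.714 in the controls and 1.79, 1.64 and 1.32 in N129, N136 and N138. Cd79b counts per Cd79a count were 0.754, 0.739 and 0.907 in the controls and 1.39, 1.46 and 1.11 in silicosis. Both ratios were higher in each silicosis library than in each control, and being ratios within a library they do not depend on the scaling. Jchain counts per Cd79a count moved further, from 0.382, 1.02 and 0.479 in the controls to 8.09, 23.1 and 7.65.

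Plasma cell genes were set against B cell genes within each library by the mean log2 CPM of the 6 less that of the 3. The difference was -1.74, -1.42 and -2.13 in C7, C8 and C9, and -0.72, -0.03 and -0.43 in N129, N136 and N138. Each silicosis library was above each control, N138 included, and the group means differed by 1.37. Without Jchain, an alternative chosen after seeing the data, the difference was -1.86, -1.77 and -2.39 in the controls and -1.37, -0.86 and -1.07 in silicosis, again with no overlap. The group means then differed by 0.91. In N138 both parts enter the difference. Its mean log2 CPM of the B cell genes, 4.77, was below each control, at 5.01 to 5.81. That of the 6 plasma cell genes, 4.34, was above each control, at 3.58 to 3.67. No p is given, because the score is made from members chosen with results known.

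**Figure D3:**
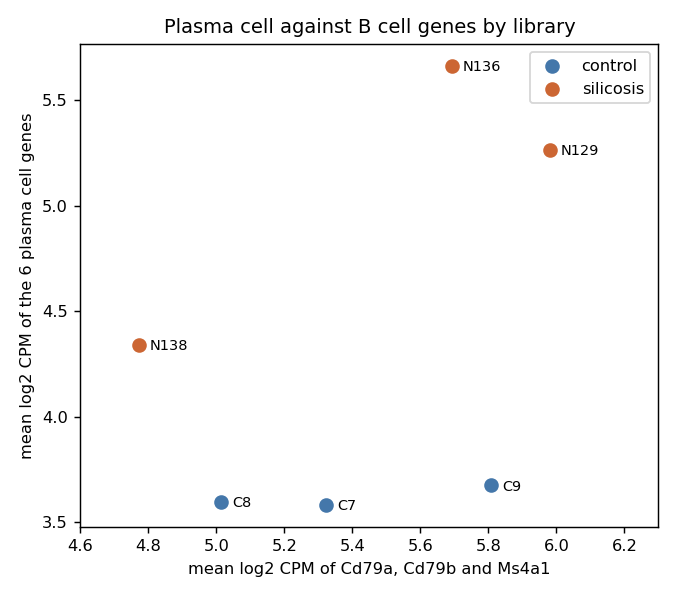
Mean log2 CPM of the 6 plasma cell genes (vertical axis) against that of Cd79a, Cd79b and Ms4a1 (horizontal axis), 1 point per library. The controls lie between 3.58 and 3.67 on the vertical axis while spreading from 5.01 to 5.81 on the horizontal one; N138 is lowest on the horizontal axis, at 4.77, and still above the controls on the vertical axis, at 4.34.

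The order of the silicosis libraries also differed between the classes. N136 was the highest silicosis library for 5 of the 6 plasma cell genes, all but Pou2af1. For the 3 B cell genes it was N129 in each case. In longer lists of genes of the same cells, N136 was highest for 16 of 20 plasma cell genes and N129 for 25 of 29 B cell genes, and over all tested mRNAs these libraries were highest for 36.6% and 25.7%. N136 was also highest for 18 of 24 ER stress and Xbp1 target genes (75%), so that order was not particular to plasma cell genes. The T cell markers followed the B cell order: N129 was highest and N138 lowest for 7 of 7. Summed over the 7 they came to 83.0 to 123 CPM in the controls and to 163, 107 and 63.0 CPM in N129, N136 and N138, with 0 of 7 called and none at 0. The part of this lymphocyte level in the B cell values was not tested.

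Compared per kilobase of annotated exon, Jchain moved from the middle of the order to its top. In the controls the order was Xbp1 at 67.4 ± 7.91, Cd79a at 34.7 ± 8.92, Cd79b at 28.8 ± 10.9, Jchain at 21.4 ± 7.94, Ms4a1 at 12.3 ± 2.72 and Pou2af1 at 10.2 ± 2.32 CPM per kilobase (SD, n = 3). Irf4 at 3.94 ± 0.862, Derl3 at 1.77 ± 0.277 and Mzb1 at 0.773 ± 0.287 closed it. Cd79a and Cd79b, Cd79b and Jchain, and Ms4a1 and Pou2af1 were neighbours whose means did not differ beyond their spread between libraries. Within each control library Cd79a was still above Cd79b, and Ms4a1 above Pou2af1, while Jchain was above Cd79b in C8 only. In silicosis Jchain led at 348 ± 263 CPM per kilobase, with Xbp1 next at 99.7 ± 15.9, a gap inside the spread of Jchain between libraries. Within each library Jchain was above Xbp1, at 271, 641 and 132 against 93.6, 118 and 87.8 in N129, N136 and N138. These places depend on the annotation: the Jchain length used was 1393 bases, while its longest GENCODE M21 transcript has 2341 bases. With that longer length Jchain would fall below Xbp1 in N138 and below Cd79b in C8. Cd79b at 34.4 ± 14.0, Cd79a at 25.0 ± 7.85, Pou2af1 at 21.3 ± 10.2 and Ms4a1 at 19.4 ± 8.47 followed, each neighbour within the spread of the next between libraries. Within each silicosis library Cd79b was above Cd79a and Cd79a above Pou2af1, while Ms4a1 was above Pou2af1 in N138 only.

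The wider plasma cell program was described with a longer list that holds the 6 members. Of its 20 genes, 13 rose (65%, beside 15.3% of all tested mRNAs), 0 fell and 7 were not called, with a median log2 fold change of 0.66. Leaving out the 6 members, 7 of 14 rose and 0 fell, with a median of 0.63. Ell2, an elongation factor that favours the secreted form of antibody messengers, went from 44.2 ± 1.55 to 72.1 ± 0.890 CPM, a log2 fold change of 0.71. Slamf7, a surface receptor of plasma cells and other immune cells, went from 21.7 ± 4.14 to 49.7 ± 6.71 CPM (log2 fold change 1.20). Both stayed called whichever library was left out. Ell2 was level over N129, N136 and N138, at 72.7, 72.5 and 71.1 CPM, where Jchain spanned 4.86-fold. The part of other cells in the levels of the listed genes was not tested. The list's count was 8 without C8, N129 or N136, 40% beside 10.1%, 10.4% and 12.4% of all mRNAs tested in those fits.

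Some defining plasma cell genes stood outside the calls. Tnfrsf17, also called BCMA, the survival receptor of plasma cells, was at 0.199, 0 and 0.365 CPM in the controls and 0.730, 0.734 and 0.529 CPM in N129, N136 and N138, without overlap but at an edgeR adjusted p of 0.101. Prdm1, which encodes the plasma cell repressor Blimp-1 and is also used by T cells and macrophages, had a log2 fold change of 0.20 (SE 0.11, edgeR adjusted p = 0.194). Both were chosen for mention after their values were seen.

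Of 29 B cell genes, 6 rose, 0 fell and 23 were not called, with a median log2 fold change of 0.42. The 6 are 20.7% of the list, near the 15.3% of all tested mRNAs called higher, so the count by itself is no result about B cell genes. All 6 called genes were outside the 3 members in this list. Btk, a kinase of the antigen receptor pathway that myeloid cells also use, went from 16.6 ± 2.82 to 26.8 ± 2.84 CPM (log2 fold change 0.69). Cr2, the complement receptor of B cells and follicular dendritic cells, was at 24.3, 18.4 and 25.7 CPM in the controls and at 95.2, 44.8 and 32.7 CPM in N129, N136 and N138. The rise was 1.34 on the log2 scale, or 0.77 without N129, and its call ended without C8 (edgeR adjusted p = 0.0633). H2-Ob, part of an inhibitor of antigen loading in B cells, rose by 0.83, a call that ended without C8 (edgeR adjusted p = 0.0665) or N129 (edgeR adjusted p = 0.0598). Without N138, 11 of the 29 B cell genes were called higher, 37.9% beside 16.2% of all mRNAs tested without that library. The count was 2 without N129 (6.9% beside 10.4%), 3 without C7 (10.3% beside 10.1%) and 1 without C8 (3.45% beside 10.1%). It was 4 without N136 (13.8% beside 12.4%) and 7 without C9 (24.1% beside 11%).

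**Figure D4:**
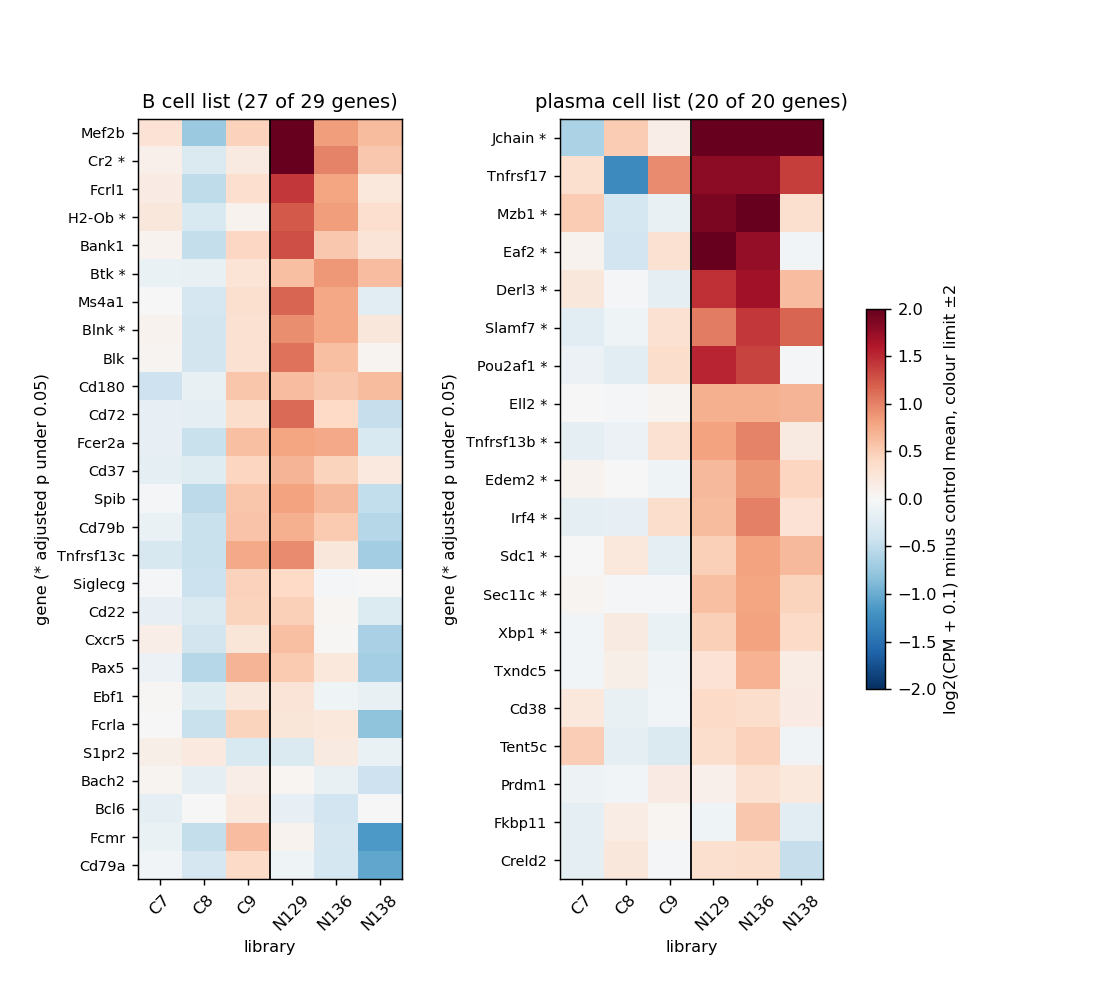
Colour gives log2(CPM + 0.1) less the mean of the controls, for 27 of the 29 B cell genes and for the 20 plasma cell genes (rows, sorted by fold change) in the 6 libraries (columns); stars mark genes with an adjusted p under 0.05. N129 is reddest in the B cell panel and N136 in the plasma cell panel, while N138 is blue for Cd79a, Fcmr and other B cell genes that were not called.

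Plasma cells depend on the ER stress response, of which Xbp1 is an arm. Of 24 ER stress and Xbp1 target genes, 3 rose, 0 fell and 21 were not called, with a median log2 fold change of 0.20. The 3 are 12.5% of the list, near the 15.3% of all tested mRNAs called higher. Edem1, which sends misfolded glycoproteins to degradation, rose in each silicosis library, with means of 114 ± 14.9 and 237 ± 35.5 CPM and a log2 fold change of 1.06 (SE 0.14, edgeR adjusted p = 0.000631). Hyou1, an ER chaperone, rose by 0.49 and Derl1, a paralogue of Derl3, by 0.38, and both calls ended without C7, C9, N129 or N136, that of Derl1 also without C8. Without N138, 8 of the 24 were called higher, 33.3% beside 16.2% of all mRNAs tested without that library, and without C7, C9, N129 or N136 Edem1 was the 1 gene called higher. That 1 gene is 4.17% of the list, beside 10.1% to 12.4% of all mRNAs tested in those fits.

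Of 14 tested genes for the survival and homing of these cells, 7 rose, 0 fell and 7 were not called, with a median log2 fold change of 0.67. The 7 that rose are 50% of the list, beside 15.3% of all tested mRNAs called higher. The 7 include 1 gene, at 0 to 0.209 CPM in the controls, that passed the filter only through its silicosis libraries. Its call therefore lends no weight to that share. Over the same 14 genes the count was 4 without C7, C8, N129 or N136, 28.6% beside 10.1% to 12.4% of all mRNAs tested in those fits. That gene is not among those 4. It was 10 without N138, 71.4% beside 16.2%. Cxcl12, the chemokine that keeps plasma cells in their niche, went from 266 ± 21.7 to 446 ± 70.7 CPM (log2 fold change 0.74). Il6, a cytokine that sustains plasma cells among many other roles, was at 0.571, 0.263 and 0.679 CPM in the controls and at 4.69, 3.60 and 1.50 CPM in N129, N136 and N138 (log2 fold change 2.70, SE 0.50).

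Pigr, the epithelial receptor that carries Jchain-linked antibodies across mucosal surfaces, had 58.6, 60.6 and 133 CPM in C7, C8 and C9. It had 332, 575 and 179 CPM in N129, N136 and N138, above each control and in the same order as Jchain. The log2 fold change was 2.11 (SE 0.44, edgeR adjusted p = 0.00645), and 1.60 without N136. The survival factor Tnfsf13b, or BAFF, was picked for mention with its values known and was not called (log2 fold change 0.08, edgeR adjusted p = 0.686). Il21, a helper T cell cytokine that drives plasma cell formation, did not pass the filter. It had 0 counts in each control and 38, 28 and 6 counts in N129, N136 and N138. The silicosis mean was at least 8.01-fold higher against a floor of 3 counts in each control library, a bound that covers counting error only. N129 and N136 carry that mean, at 0.991 and 0.642 CPM, while N138 was at 0.167 CPM against a floor of 0.0749 CPM.

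**Figure D5:**
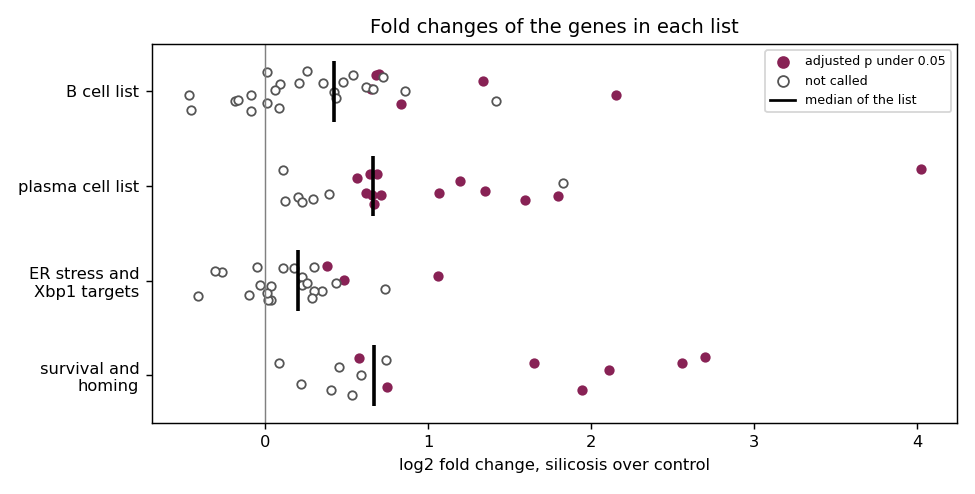
Log2 fold change, silicosis over control (horizontal axis), of the tested genes of 4 lists (rows, jittered); filled points passed an adjusted p of 0.05, open points did not, and the black line is the median of the list. The medians are 0.42, 0.66, 0.20 and 0.67 from top to bottom, and 0 genes of these lists were called lower.

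The genes most like Jchain over the 6 libraries were found by the root mean square difference of log2 CPM after subtracting the control mean. They were Orm1, Ackr1, Cilp, Lcn2, Slc26a4, Hcar2, Tnfrsf9 and Syt13, at 0.43 to 0.56 log2 units. For Lcn2, the iron-scavenging lipocalin, levels were 56.9, 70.7 and 78.1 CPM in the controls and 609, 1335 and 300 CPM in N129, N136 and N138, the same library order as Jchain in silicosis. No other plasma cell gene was as near: Mzb1 was the nearest member to Jchain, at 1.70. This distance depends on the size of the change, so Mzb1, with a log2 fold change of 1.80 against 4.02, could not be as near. Mzb1, Xbp1, Derl3 and Irf4 also had the library order of Jchain in silicosis. Among the members the distances did not split cleanly by class. The closest pair was Irf4 and Xbp1, both plasma cell genes, at 0.27. Ms4a1 was 0.29 from Cd79b and 0.29 from Pou2af1, but 0.77 from Cd79a. Nearest to Cd79a were Ifi206, Tgtp2, Fcmr, Prkcq and Gvin2, at 0.13 to 0.15. Fcmr, the receptor for IgM on B cells, was at 28.2, 22.3 and 47.6 CPM in the controls and 32.8, 24.6 and 14.0 CPM in silicosis. None of these 5 was called. The likeness is a description over 6 libraries that share the group difference.

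Markers of other cells that use some of the same genes were counted beside them. Of 7 markers of plasmacytoid dendritic cells, which also express Mzb1 and Derl3, 0 were called higher and Cox6a2 was called lower (log2 fold change -0.90), a call that ended without C8, C9 or N136 (edgeR adjusted p from 0.0507 to 0.0671). Their sum was 411 to 454 CPM in the controls and 394 to 421 CPM in silicosis, most of it Tcf4. The other 6 summed to 38.0 to 54.5 CPM in the controls and 49.1 to 51.2 CPM in silicosis. The 9 secretory epithelial markers summed to 10050 to 17645 CPM in the controls and 4786 to 8526 CPM in silicosis, nearly all of it Scgb1a1. Their other 8 had the opposite order, with 295, 400 and 810 CPM in C7, C8 and C9 and 855, 830 and 903 CPM in N129, N136 and N138. Of 8 markers of type 2 dendritic cells and macrophages, which use Irf4, Ccl22, Itgax and Cd68 rose and Cd209a fell, with sums of 275 to 315 CPM in the controls and 339 to 498 CPM in silicosis. Without Itgax, the most abundant, the other 7 summed to 194, 222 and 213 CPM in C7, C8 and C9. In N129, N136 and N138 they summed to 211, 287 and 235 CPM, so the groups overlapped. The Cd68 call ended without C7 or C8 (edgeR adjusted p of 0.0619 and 0.0593), and that of Cd209a without C8 (edgeR adjusted p = 0.0532). No marker of these lists was at 0. The part of these cells in the levels of Xbp1, Irf4, Mzb1 and Derl3 was not tested.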

How the data were processed

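Total RNA of 6 whole-lung libraries was grouped by the treatment in the labels, 3 control and 3 silicosis. The authors deposited raw whole-number counts per gene. The authors' deposited table of comparisons holds log2 fold changes and adjusted p-values. Per the submitters' processing notes, the genome build was GRCm39, and the tools included DESeq2 1.36.0, featureCounts 2.0.0, HISAT2 and Bowtie2, besides Trimmomatic 0.39; their roles are not stated. Neither strand setting nor annotation is given in the sources used here. The lowest total of a listed gene was 3 counts.

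The mRNA table was fitted whole with edgeR 4.0.16 in R 4.3.3: filterByExpr (15808 genes, 99.98% of counts), TMM, and the quasi-likelihood F test, with calls at 0.05 after Benjamini-Hochberg adjustment. The SE is the size of the log2 fold change over the square root of F. Log2 CPM used a prior of 0.5 counts, and exon lengths came from the basic annotation of GENCODE M21 (GRCm38). Libraries of a group were distinct, with chi-square per degree of freedom of 15.0 to 79.0.

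The fit was repeated with a 2-fold minimum, with limma-voom (limma 3.58.1), with DESeq2 1.42.0 or its size factors, unfiltered, and with each library left out. On simulated counts over 15808 genes for this comparison, the test recovered 74% of 100 genes set to a 2-fold change and 97% of 100 set to 4-fold, and 5.53% of calls were unchanged genes. The members and gene lists were chosen with earlier results of these data known. Named genes are the members and, for each list, the 3 called genes with the lowest p and any called against the list's direction. For likeness, the rule takes the 8 genes nearest to Jchain and 5 nearest to Cd79a whose mean log2 CPM is 0 or above, without Gm, Rik and LOC symbols. Others named were singled out after their values were seen. Results of some list genes are not reported here by name.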

Additional observations from a re-analysis of the deposited data

How the results depend on the processing

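No paired analysis was possible because the groups share no replicate numbers. Of the 9 members, 6 were called with DESeq2 size factors or no filter, 5 with DESeq2, 4 with limma-voom and 1, Jchain, against a 2-fold minimum; without 1 library the count was 3 to 7. Of the 6 plasma cell genes, 1 passed the 2-fold minimum, and 3 to 6 were called without 1 library. Of the 3 B cell genes, 0 were called by edgeR, DESeq2 or limma-voom, and 0 to 1 were called without 1 library. In the main edgeR fit 0 of the 3 had an unadjusted p under 0.05. With DESeq2 Cd79a had a log2 fold change of -0.48 (SE 0.24, DESeq2 adjusted p = 0.106). Against a 2-fold minimum 0 genes of the B cell list, 1 of the plasma cell list, 0 of the ER stress list and 0 of the survival and homing list were called. Without 1 library the counts were 1 to 11, 8 to 14, 1 to 8 and 4 to 11, the last with Il21, which passes the filter in some of these fits only through its silicosis counts. Without C9 Ddit3, and without N136 Atf6, was called lower in the ER stress list. The difference between plasma and B cell genes, 1.37, was 1.53 from summed CPM, 1.19 to 1.55 without 1 library and 0.91 without Jchain. Leaving out a library also removes a degree of freedom; beyond that the cause was not tested. Depth limits Mzb1, with 21 to 40 counts in the controls, Tnfrsf17 and Il21 most.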
